A study of Mus musculus with 24 samples.

Results

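A set of 521 windows of 100 bp had few or no reads for DNA 5-methylcytosine (5mC) in wild-type (WT) mouse embryonic stem (mES) cells and carried 5mC signal in Tet2-knockout (Tet2-KO) mES cells. Each window came from the authors' list of differentially methylated windows, lay on chromosomes 2 to 11, 13, 14 or 16 to 19, had at most 3 immunoprecipitated reads in each of the 3 WT libraries and had a higher mean level in Tet2-KO than in WT. The list held 14279 windows for Tet2-KO against WT, of which 1923 were hypermethylated on these 16 chromosomes, so that the 521 gained windows were 27.1% of them. The 521 windows merged into 273 regions of adjoining windows. Of the 4252847 windows tested by the authors, 0.0568% were listed as higher in Tet2-KO. The windows were thus chosen by their read counts and levels in these same libraries, so the Tet2-KO and WT values below are a description and carry no test.

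Both groups were mES cells kept with serum, LIF and the kinase inhibitors CHIR99021 and PD0325901, and both had been transfected with the control siRNA labelled siNC. They differed in genotype: WT siNC (3 libraries) and Tet2-KO siNC (3 libraries), from a WT and a Tet2-/- line that were gifts to the study. How many clones stood behind each line is not given in the sources used here, so that a difference between the lines and an effect of Tet2 loss cannot be told apart. 5mC was measured by methylated DNA immunoprecipitation and sequencing (MeDIP-seq), in which an antibody to 5mC pulls down denatured genomic fragments. The whole series held 24 libraries in 8 groups and 4 lists of windows, and no unprecipitated input stood beside the libraries of the Tet2-KO against WT list, so DNA copy number at the gained windows was not tested. The WT siNC libraries held 11.5, 13.3 and 15.4 M reads (M, 1000000) and the Tet2-KO siNC libraries 8.92, 14.1 and 14.2 M reads. The lists hold no expression values, so neither the loss of Tet2 nor the cell type could be checked against markers. Replicates 2 and 3 did not differ beyond sampling noise in either genotype, with a chi-square per degree of freedom of 0.969 over 5391 listed windows in Tet2-KO and 1.00 over 12855 in WT, whereas the other pairs gave 1.26 to 1.51. They were therefore averaged and counted as 1 sample, which leaves n = 2 per group in every mean ± SD. Whether they are 1 library deposited as 2 was not tested, and the pooled ratios and their intervals below sum the reads of all 3 libraries as separate counts, so that the intervals would be too narrow if they were. The study calls the replicates of its genome-wide data biological, but the labels do not say whether the libraries came from separate cultures.

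TET2 is a dioxygenase that oxidizes 5mC to 5-hydroxymethylcytosine and further oxidized forms, a step that leads to removal of the methyl group. In mammalian cells 5mC lies mainly at CpG dinucleotides, which are sparse in most of the genome and dense at many gene starts, where they are usually unmethylated. A fragment is pulled down more readily the more methylated CpG sites it carries, so a MeDIP level rests both on methylation and on CpG number. In a bulk DNA sample, methylation in more of the cells and methylation of more alleles per cell cannot be told apart.

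The following reference sequences are those of the gained regions with the highest Tet2-KO levels and of gained windows beside gene starts, and they show the range from repeated arrays to CpG-dense promoters. They are from the plus strand of mm10 (GRCm38.p6), with CpG dinucleotides in capitals. The first is the gained region with the highest level and the second is the gained array in an intron of Catsperg1:
chr2:4653401-4653700: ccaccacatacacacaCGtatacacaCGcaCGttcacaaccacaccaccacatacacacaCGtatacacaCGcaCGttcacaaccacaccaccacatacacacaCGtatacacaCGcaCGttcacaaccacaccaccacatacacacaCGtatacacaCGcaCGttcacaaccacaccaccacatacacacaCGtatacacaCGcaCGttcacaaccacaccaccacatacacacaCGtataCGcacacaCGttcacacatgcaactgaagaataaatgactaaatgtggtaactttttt
chr7:29212601-29212800: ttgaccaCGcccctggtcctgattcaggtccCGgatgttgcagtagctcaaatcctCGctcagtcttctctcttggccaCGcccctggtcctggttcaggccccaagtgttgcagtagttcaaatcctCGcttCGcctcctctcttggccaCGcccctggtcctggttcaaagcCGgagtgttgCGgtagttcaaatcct
The next 2 are the other single-copy regions of highest level, one 1788 bp from the start of Prpf18 and the other in an exon of the long non-coding RNA Gm35850. The first of them had no read in any WT library:
chr2:4653901-4654000: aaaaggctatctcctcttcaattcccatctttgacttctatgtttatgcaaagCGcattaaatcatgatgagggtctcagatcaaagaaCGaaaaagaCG
chr8:90714201-90714300: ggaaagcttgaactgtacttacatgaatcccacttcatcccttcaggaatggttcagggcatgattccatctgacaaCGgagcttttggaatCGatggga
The last 3 lie beside the starts of H2afj, Smarca5 and Abcc9, in that order:
chr6:136807401-136807500: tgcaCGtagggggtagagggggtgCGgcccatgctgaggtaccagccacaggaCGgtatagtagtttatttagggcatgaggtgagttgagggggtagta
chr8:80739501-80739600: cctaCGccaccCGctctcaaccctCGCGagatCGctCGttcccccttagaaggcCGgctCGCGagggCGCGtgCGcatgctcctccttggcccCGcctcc
chr6:142702401-142702500: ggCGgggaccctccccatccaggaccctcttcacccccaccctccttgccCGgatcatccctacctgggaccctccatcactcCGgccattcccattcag
The Smarca5 window held 13 CpG sites in 100 bp, whereas the H2afj and Abcc9 windows held 3 each.

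Across the 521 windows, the Tet2-KO siNC libraries had a median of 11, 18 and 18 reads, which is 12.3, 12.8 and 12.7 RPKM (reads scaled to window length and library size). The WT siNC libraries had medians of 0, 1 and 1 read, which is 0, 0.75 and 0.65 RPKM. No window was empty in a Tet2-KO library, where the lowest counts were 3, 7 and 8 reads. In the WT libraries 270, 242 and 240 windows had no read. The lowest Tet2-KO library stood above the highest WT library in all 521 windows, by counts and by RPKM, a separation that the choice of windows largely fixes and that stands beside the listed share of 0.0568%. Tet2-KO replicate 1 was close to the other Tet2-KO libraries, with a median ratio of 0.917 to their mean RPKM. It was under 0.5 of that mean in 22 windows and over 2 times in 2 windows.

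**Figure D1:**
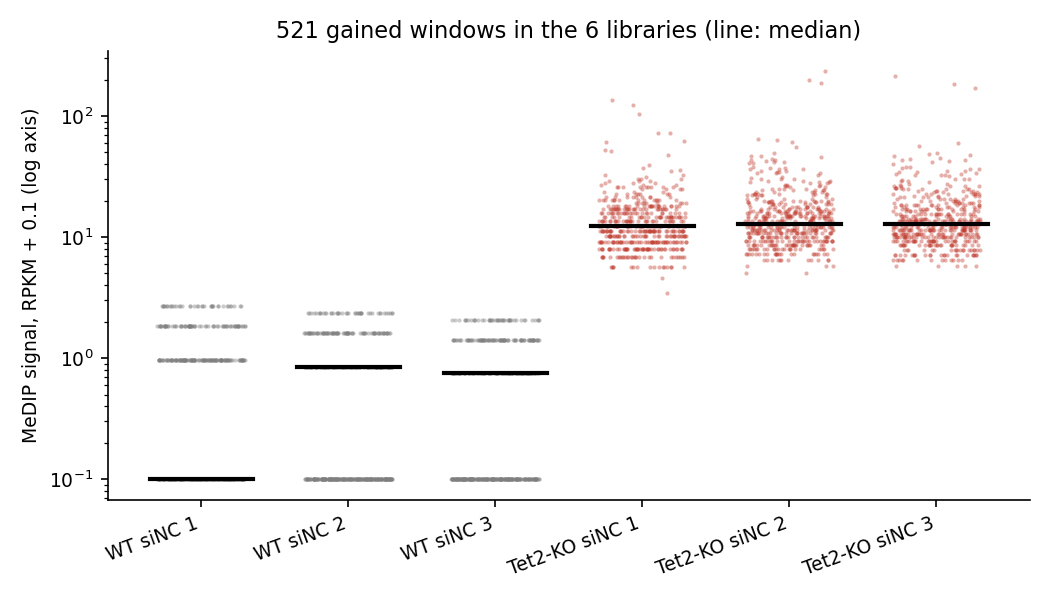
MeDIP level of the 521 gained windows in each library, as RPKM plus 0.1 on a log axis, with 1 point per window and a line at the median. Every Tet2-KO point of a window lies above its WT points, and the WT points fall on the steps of 0, 1, 2 and 3 reads.

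The gain was of modest depth in most windows. Mean Tet2-KO levels ran from 7.06 to 194 RPKM with a median of 12.5, and the middle of the distribution lay between 10.1 and 15.9 RPKM. Only 7 of 521 windows exceeded 50 RPKM. The other 1402 hypermethylated windows on the same chromosomes, which had more than 3 reads in at least 1 WT library, had median levels of 51.1 RPKM in Tet2-KO and 13.8 RPKM in WT. The relative methylation score, the authors' index on a scale of 0 to 1 that corrects the signal for CpG density, had medians of 0.4, 0.44 and 0.44 in the Tet2-KO libraries and of 0, 0.1 and 0.11 in the WT libraries. A total of 26 Tet2-KO reads was the lowest count of a window, as at chr14:119375701-119375800 with 7, 9 and 10 reads and none in WT. The highest count was at chr2:4653501-4653600, with 120, 330 and 303 reads in Tet2-KO and 0, 0 and 1 in WT.

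No WT library had a read in 132 windows (25.3%), and a further 82 had 1 read over the 3 libraries. Against the floor of 3 reads in each WT library, the 132 empty windows were at least 3.11-fold to at least 72.4-fold higher in Tet2-KO, with a median bound of 4.64-fold. In the 389 windows with WT reads, the ratio of pooled reads, each over its library size, had a median of 17.5 and ran from 6.62 to 814. The median log2 fold change over all 521 windows was 4.46 on the log2(RPKM + 0.1) scale and 3.64 with the empty windows at their bound. It was 3.12 with a pseudocount of 1 RPKM, 5.32 with the replicate number as a block, and 6.12 and 6.10 with TMM and DESeq2 size factors over the listed windows, so its size rests on these choices. Just inside the limit, the 100 windows with 3 reads in the highest WT library had medians of 14.3 RPKM in Tet2-KO and 1.48 RPKM in WT. Just outside it, the 96 hypermethylated windows with 4 reads had medians of 16.4 and 1.97 RPKM.

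The strongest gain lay in intergenic DNA at chr2:4653401-4653700, 1288 bp from the start of Prpf18, which encodes a pre-mRNA splicing factor. Its highest window gave 134, 235 and 214 RPKM in the Tet2-KO libraries, so that replicate 1 was the lowest. The region averaged 159 ± 54.9 RPKM in Tet2-KO and 0.108 ± 0.153 RPKM in WT (SD, n = 2). With 753 reads against 1, the ratio in the highest window was 814, with an exact 95% interval of 146 to 32189 that covers counting error only. A further gained region, chr2:4653901-4654100, followed just downstream with 27, 64 and 54 reads in its highest window against 0, 0 and 0 in WT, at least 16.7-fold higher. The nearest hypermethylated window outside the set was 445400 bp away.

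The longest region was also the strongest in single-copy DNA. It covered 12 windows, chr7:29211701-29212900, in an intron of Catsperg1, which encodes a subunit of the sperm calcium channel CatSper, and began 206 bp from the nearest of the gene's annotated transcript starts. Its highest window had 64, 90 and 80 reads in Tet2-KO against 0, 2 and 1 in WT, a ratio of 84.3 (exact 95% interval, 28.5 to 412). Over the region the level was 40.5 ± 0.55 RPKM in Tet2-KO and 0.744 ± 0.174 RPKM in WT (SD, n = 2). Within the region replicate 1 was lower than the other Tet2-KO libraries in some windows and higher in others, as at chr7:29211801-29211900 with 13.4, 27.0 and 26.1 RPKM and in the highest window with 71.7, 64.0 and 56.4 RPKM. A separate region of 2 windows, chr7:29210801-29211000, lay on an exon 84 bp from another transcript start of the gene, with 13, 21 and 26 reads in its highest window against 0, 1 and 1.

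The strongest region and the strongest single-copy region are tandem arrays in the reference. Over 300 bp centred on each window, bases were compared with those 10 to 100 bp further on, and an array was counted where at least 80% of them were equal. The chromosome 2 region matched itself at a period of 44 bp with 87.5% identity, and the Catsperg1 array at a period of 72 bp with 81.1 to 93.0% identity. In all, 12 of 521 gained windows (2.30%) lay in such arrays, in 4 regions, against 4.14% of the other hypermethylated windows, 3.98% of the hypomethylated windows and 0.146% of all windows of chromosome 19. Of the 12 windows, 8 lay in the Catsperg1 array, at 22.8 to 64.0 RPKM in Tet2-KO, and 1 in the chromosome 2 region. How many units these arrays hold in the 2 lines was not tested. The other 2 arrays, at chr6:136406001-136406200 with a period of 12 bp and at chr8:107654801-107654900 with a period of 68 bp, had low levels of 7.95 to 9.40 RPKM.

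The other single-copy regions of highest level lay mainly in introns and between genes. In an intron of A2ml1, a protease inhibitor gene, chr6:128541501-128542100 had 27, 65 and 68 reads in its highest window and none in WT, at least 18.3-fold higher. The middle bases of that window occur at 3 places in the reference. At chr8:90714101-90714300 the highest window had 28, 52 and 49 reads against 2, 0 and 3, a ratio of 27.9 (11.6 to 87.3). In an intron of Fto, an RNA demethylase gene, chr8:91436101-91436500 had 19, 42 and 35 reads against 1, 3 and 2. A window in an exon of the non-coding gene Gm42031, chr8:85126701-85126800, averaged 23.2 RPKM in Tet2-KO and 0.922 RPKM in WT. An intergenic window, chr11:37481701-37481800, averaged 21.2 and 0.188 RPKM, and a window in an intron of Iqcm, chr8:75743601-75743700, averaged 21.4 and 0.865 RPKM. Replicate 1 had the lowest RPKM of the Tet2-KO libraries in the highest window of 7 of the 10 strongest single-copy regions.

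Of the 5 longest regions, 3 others lay away from coding starts. At chr6:133262601-133263500, 9 windows of repeated intergenic DNA averaged 21.6 ± 3.44 RPKM in Tet2-KO and 0.331 ± 0.079 in WT. At chr18:30267701-30268500, 8 windows in a non-coding gene 4247 bp from Pik3c3 averaged 24.3 ± 7.27 against 0.765 ± 0.159 RPKM. At chr8:91423201-91423900, 7 windows in an intron of Fto averaged 13.1 ± 1.34 against 0.607 ± 0.368 RPKM (all SD, n = 2). In regions with a multi-copy middle sequence the source of a read is uncertain. The highest of these after chromosome 2 were chr6:47771201-47771300 with 46, 60 and 66 reads against 1, 2 and 1, chr8:91743101-91743500 with 42, 69 and 59 against 1, 1 and 1, and chr6:47768201-47768300 with 25, 53 and 47 against 0, 1 and 0. A window in an intron of Ehbp1, chr11:22335201-22335300, had 18, 42 and 62 reads against 1, 3 and 2.

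Promoters were among the gained regions. Of 273 regions, 37 (13.6%) lay within 1 kb of an annotated transcription start and 20 (7.33%) within 1 kb of the start of a protein-coding gene, at 19 genes. The share within 1 kb of any start was 14.3% of the 516 other hypermethylated regions and 10.1% of the 2164 hypomethylated regions, and the share within 1 kb of a coding start was 9.50% and 3.70%, respectively. The CpG number per window had a median of 4.83 in the gained regions at coding starts and of 2.67 elsewhere, and 15 of the 20 were single-copy.

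At the start of Atf7ip, which encodes a partner of the histone methyltransferase SETDB1, chr6:136518701-136519000 averaged 10 CpG sites per window and had 23, 26 and 37 reads in its highest window against 2, 3 and 0. Its mean level was 21.1 ± 1.84 RPKM in Tet2-KO and 1.29 ± 0.627 RPKM in WT (SD, n = 2), and the ratio in the highest window was 18.6 (7.67 to 58.7). At the start of Smarca5, which encodes an ISWI nucleosome remodeller, chr8:80739301-80739700 had 18, 19 and 22 reads against 1, 0 and 0, and the nearest listed window outside the gained set was 1631900 bp away. The middle of its highest window occurs at 3 places in the reference. At the start of Chd9, a gene of the chromodomain helicase family, chr8:90849701-90849900 had 12, 20 and 17 reads against 3, 2 and 3, the lowest ratio of all gained windows with WT reads at 6.62 (3.11 to 16.2). Beside H2afj, which encodes a histone variant, 8 windows at chr6:136806901-136807700 had 13, 32 and 36 reads at the highest against 0, 0 and 2.

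The other named starts were of varied function. Abcc9, a regulatory subunit of potassium channels, had 14, 17 and 24 reads against 0, 2 and 1 at chr6:142702301-142702700. Hnmt, which encodes histamine N-methyltransferase, had 13, 20 and 20 against 2, 2 and 3 at chr2:24048801-24049000, and its Tet2-KO libraries were nearly equal at 12.9 ± 0.023 RPKM. Rsph3b, which encodes a radial spoke protein of cilia, had 15, 22 and 19 reads against none in any WT library at chr17:6948401-6948800, at least 6.73-fold higher. The middle of that window is single-copy, and those of the region's other 3 windows occur at 2 places. At the start of Foxm1, which encodes a cell-cycle transcription factor, chr6:128369801-128369900 had 17, 23 and 32 reads against 3, 2 and 2, but its middle 32 bases occur 1040712 times in the reference, so that its reads cannot be placed with confidence. The remaining regions at coding starts lay at Ipmk, Pttg1, Cphx3, Rgcc, Laptm5, Miip, Ogfod2, Zfp790, Gtf2e2 and Ankrd37, with mean Tet2-KO levels from 7.98 RPKM upwards. Among them, Pttg1 encodes securin, Ipmk an inositol kinase and Gtf2e2 a subunit of a general transcription factor.

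**Figure D2:**
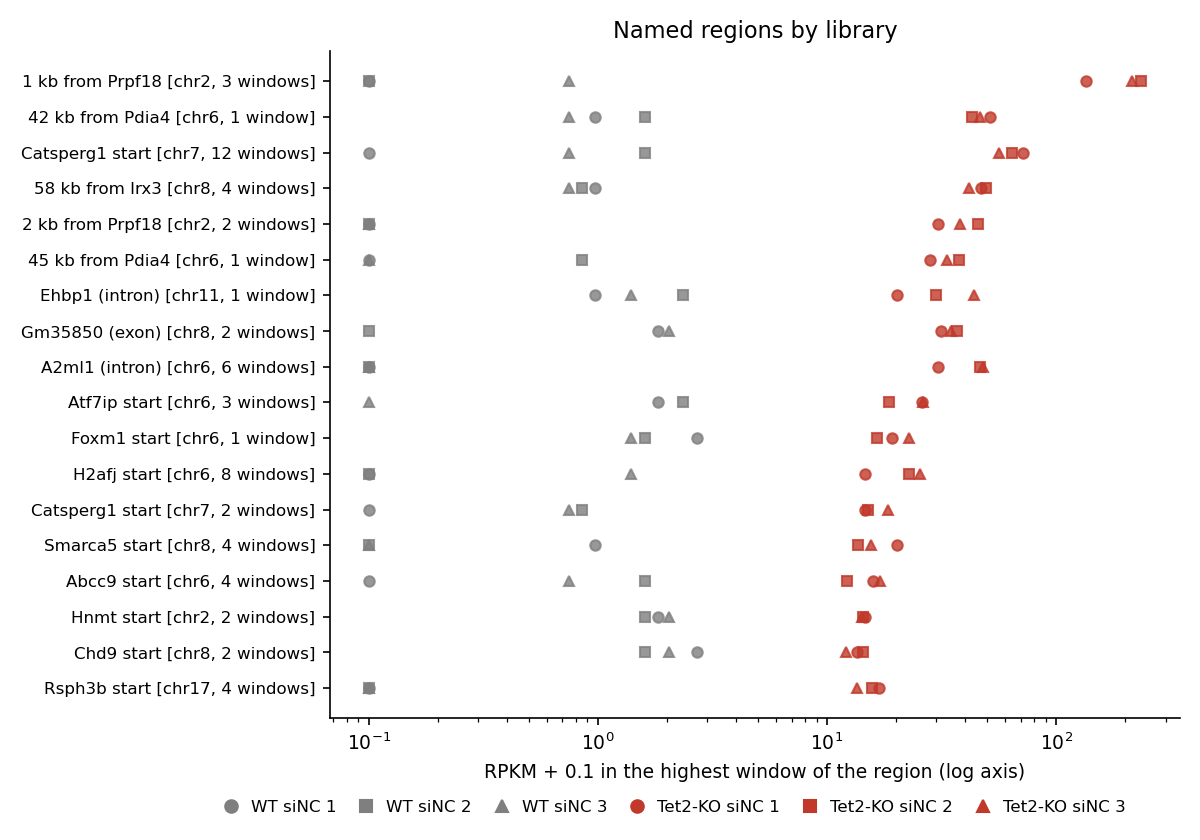
MeDIP level in the highest window of each named region, as RPKM plus 0.1 on a log axis, for the 3 WT siNC libraries in grey and the 3 Tet2-KO siNC libraries in red. The region 1288 bp from Prpf18 stands furthest to the right, and the WT points are at or below 3 reads in every region.

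Gained windows were unevenly spread over the chromosomes. Chromosomes 6, 8 and 11 held 156, 103 and 64 of them, together 323 of 521 (62.0%) on 19.6% of the length of the 16 chromosomes. Chromosome 6 held 1.04 gained windows per Mb, chromosome 8 held 0.796 and chromosome 11 held 0.524, against 0.255 over all 16 chromosomes. The lowest densities were on chromosomes 16 and 10, with 0.0204 and 0.0306 per Mb. The same 3 chromosomes held 47.5% of all hypermethylated windows, but 22.8% of the hypomethylated ones. Of the single-copy gained windows 57.2% lay there. Whether chromosome number differed between the WT and Tet2-KO lines was not tested.

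**Figure D3:**
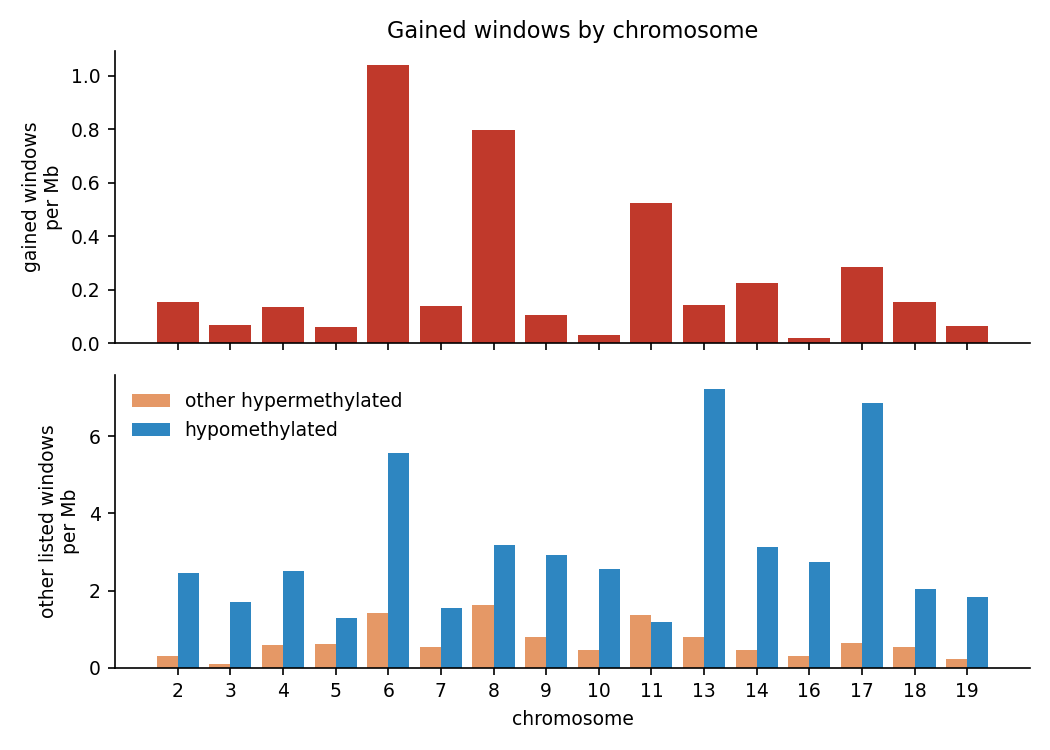
Gained windows per Mb of each chromosome (top) and other hypermethylated and hypomethylated windows per Mb (bottom). Chromosomes 6, 8 and 11 stand above the rest for gained windows, at 1.04, 0.796 and 0.524 per Mb, while hypomethylated windows are densest on chromosomes 13 and 17.

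Within chromosomes, gained regions lay in groups. When regions up to 1 Mb apart were joined, a distance chosen after seeing the data, 125 groups resulted, of which 84 held a single region. The 11 groups with at least 10 windows held 237 windows (45.5%) in 13.9 Mb, which is 0.678% of the chromosomes' length. Of these groups, 5 contained no hypomethylated window, but how many other stretches of like length lack one was not counted. The largest, chr8:90713901-93085000, had 39 gained windows in 16 regions, 28 other hypermethylated windows and 0 hypomethylated ones. It had gained windows in Chd9, Rbl2, Aktip and Fto and ran on beyond Irx3, a homeobox gene next to Fto. Fto alone carried 19 gained windows in 8 regions, the most of any coding gene, followed by Catsperg1 with 14 in 2 regions.

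Chromosome 6 carried 4 of the 5 largest groups. Group chr6:136367301-137435500 had 35 gained windows, 91.4% of them single-copy, over Atf7ip, Plbd1, Gucy2c, Wbp11 and Ptpro. Group chr6:132019501-133263500 had 29 windows, none in a coding gene. Group chr6:127846701-129812300 had 28 windows over Tead4, Foxm1, A2ml1 and Clec2g, with 15 hypomethylated windows among them. Group chr6:47657701-49459500 had 23 windows, only 17.4% single-copy, among 46 other hypermethylated and 29 hypomethylated windows. Group chr8:88374601-88806700 had 12 windows, some of them in Nod2, and no other listed window. In all, 111 protein-coding genes had a gained window in the gene body, 48 of them a single one.

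Gained windows held more CpG sites than windows of the genome at large. They held a median of 3 CpG sites per 100 bp, against 4 in the other hypermethylated windows, 5 in the hypomethylated windows and 0 over all 19863948 windows of the same chromosomes. Like the other listed windows, no gained window lacked a CpG, and 42.4% had 1 or 2, 37.0% had 3 to 5 and 20.5% had 6 or more. The last class made up 1.03% of all windows. Over 500 bp centred on the window the median was 13 CpG sites (quartiles, 9 and 19), against 4 (2 and 6) for all windows of chromosome 19. The 116 windows with a single CpG had a median of 8.5 sites in 500 bp, a distance within the reach of the immunoprecipitated fragments. Pull-down depends on CpG number, so the limit on WT reads bears on it too, and the lower CpG number beside the other listed classes is not independent of the choice. Only windows with pulled-down reads could be listed, so the higher CpG number beside all windows is not independent of the assay.

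RPKM levels differed little across CpG numbers inside the set, while the relative methylation score fell as CpG number rose. All classes met the same WT limit and were listed, so the narrow range of RPKM is not independent of the choice. The 221 windows with 1 or 2 sites had a median of 11.9 RPKM in Tet2-KO, the 193 with 3 to 5 sites had 12.6 and the 107 with 6 to 16 sites had 14.5. The relative methylation score had medians of 0.48, 0.383 and 0.33 in Tet2-KO across the same classes. Position differed too: 10.4% of the CpG-poorest class, 15.0% of the middle class and 35.5% of the densest class (38 of 107) lay within 1 kb of a start. These shares were not computed for other windows by CpG number. CpG sites are dense at many gene starts, so the rise is not shown to be particular to the gained windows.

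**Figure D4:**
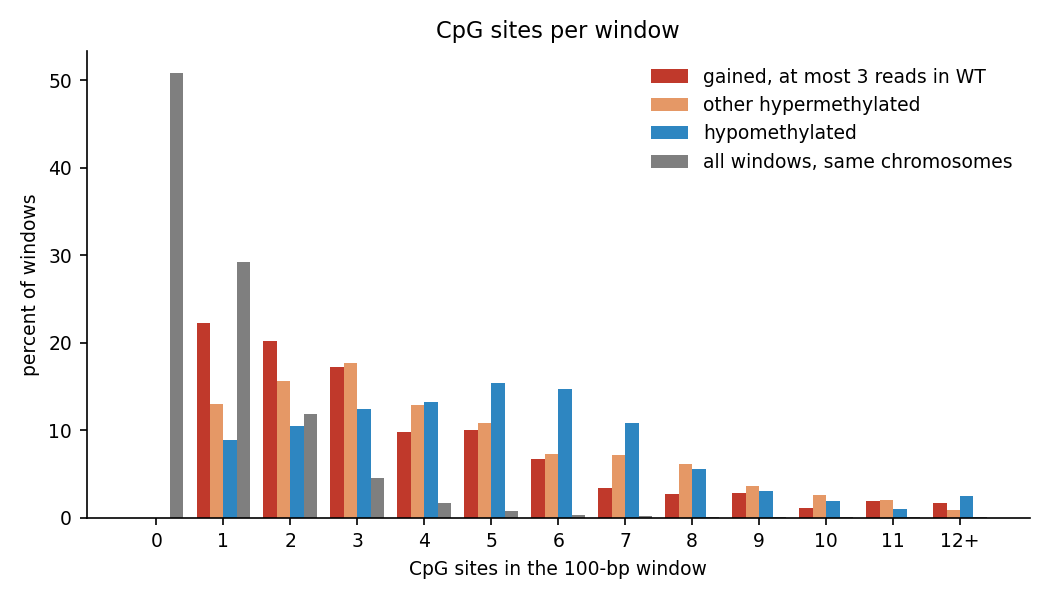
Percent of windows by number of CpG sites per 100-bp window, for the gained windows, the other hypermethylated windows, the hypomethylated windows and all windows of the same chromosomes, with 12 and more pooled. Gained windows are most frequent at 1 site (22.3%), hypomethylated windows peak at 5 sites and 50.8% of all windows have none.

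Unlike most other listed windows, most gained windows had a middle sequence that occurs once in the reference. Exact matches alone were counted, so near copies, as in the Catsperg1 array, pass as single-copy. The middle 32 bases occurred once in the reference in 346 of 521 gained windows (66.4%), against 31.0% of the other hypermethylated and 31.7% of the hypomethylated windows. At least 50% of the bases were soft-masked as repeats in 38.8% of gained windows, against 58.6% and 68.0%, and 29.4% of all windows. Single-copy gained windows had a median Tet2-KO level of 11.97 RPKM, and those with 2 to 10, 11 to 100 and over 100 copies had 13.4, 13.6 and 13.8 RPKM. Reads of a multi-copy sequence are placed at 1 of its copies, so the limit on WT reads bears on copy number too, and the share of single-copy windows is not independent of the choice.

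Most gained windows lay in introns or outside genes. Of the gained windows 46.8% lay in introns, 10.9% in exons and 42.2% outside genes, against 42.9%, 6.32% and 50.8% of all windows. Within 1 kb of a start lay 17.3% of gained windows, 14.3% of the other hypermethylated windows, 12.7% of the hypomethylated windows and 6.74% of all windows. Adjoining windows share fragments, so these shares rest on fewer than 521 independent places. Windows without a CpG count among all windows but not among those listed, so all windows are not a matched background.

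**Figure D5:**
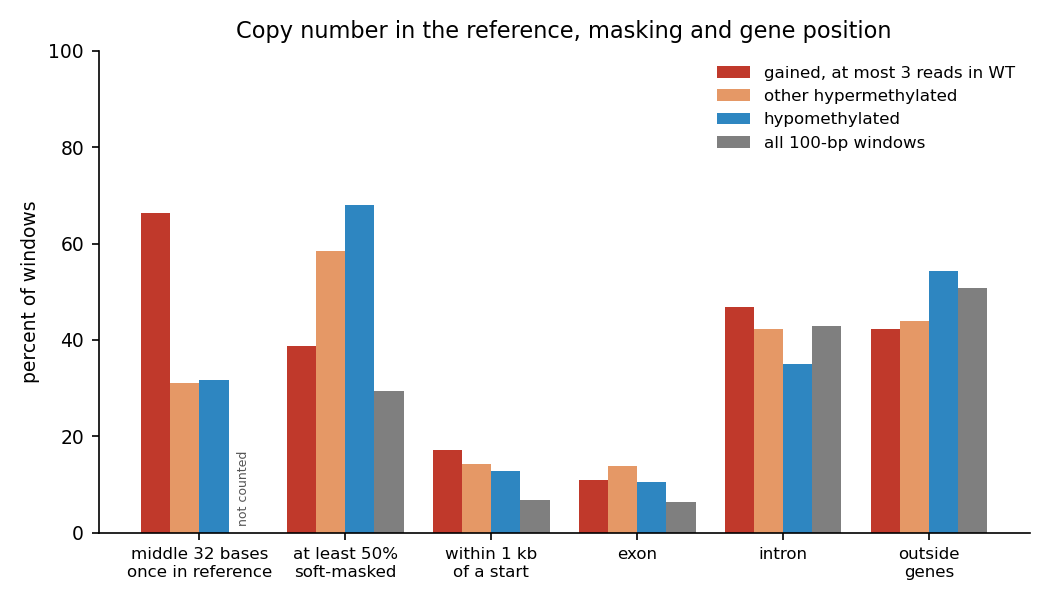
Percent of gained, other hypermethylated, hypomethylated and all 100-bp windows that have a single-copy middle sequence, are at least 50% soft-masked, lie within 1 kb of a start, or lie in exons, introns or outside genes. Gained windows reach 66.4% single-copy, and copies were not counted for all windows.

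Part of the set adjoined other hypermethylated windows. When all adjoining hypermethylated windows were joined, 268 regions held a gained window. In 182 of them every window was a gained window, and these held 357 gained windows. In the other 86, 164 gained windows (31.5%) adjoined 224 windows that had more WT reads. In these mixed regions the gained windows had median levels of 16.7 RPKM in Tet2-KO and 0.937 in WT, and their neighbours had 23.8 and 2.94. Of the 273 gained regions, 1 lay within 1 kb of a hypomethylated window. A total of 89 regions had no other listed window within 100 kb. Neither count was made for the other hypermethylated regions.

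The gene lists held 11 genes with a gained region. Over all 18171 protein-coding genes on these chromosomes, 113 (0.622%) had a gained region in the gene or within 1 kb of its start. Of 23 pluripotency genes 1 did, Trim71, an RNA-binding ubiquitin ligase gene of early embryos, with 10, 12 and 10 reads in a coding exon against none in WT. Of 31 germline genes that methylation silences 1 did, Stk31, a testis kinase gene, with 13, 15 and 26 reads against 2, 1 and 3 in an intron. None of 47 imprinted genes, 29 genes of DNA methylation and demethylation or 24 genes of the RNA 5-methylcytosine and deubiquitinase pathway did. At the overall share of 0.622%, finding none in lists of this size says little. A hypomethylated region was at 21 of the imprinted genes (44.7%), against 509 (2.80%) of all protein-coding genes.

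Among 110 developmental transcription factors, 2 had a gained region. An intron of Pax2, a kidney and eye regulator, had 12, 15 and 11 reads against 1, 1 and 1, and an intron of Zfhx3 had 12, 14 and 17 against 1, 0 and 3. Among 52 developmental signalling genes there were also 2: an intron of Bmp7, a bone morphogenetic protein, had 9, 24 and 29 reads against 3, 2 and 2, and a coding and untranslated exon of Smad7, an inhibitor of that pathway, had 8, 17 and 11 against 1, 2 and 1. Of 53 neuronal adhesion and synapse genes 3 did. Tenm2, a synaptic adhesion gene, had 16, 30 and 23 reads in an intron against 0, 0 and 1, and Rbfox1, a neuronal splicing factor, had 14, 20 and 17 in an intron against 2, 3 and 1. A total of 20 of the 53 (37.7%) had a hypomethylated region, against 2.80% of all protein-coding genes. Of 367 zinc finger genes 2 had a gained region, Zfp790 with 11, 15 and 23 reads against none and Zfp791 with 13, 15 and 14 against 0, 0 and 1. None of 1091 olfactory receptor, 327 vomeronasal receptor, 56 clustered protocadherin or 85 keratin genes had one, and 20 of the protocadherins (35.7%) had a hypomethylated region. These counts carry no test, and longer genes offer more windows.

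Short motifs were looked for on both strands of each window. CACGTG, the E-box of MYC and USF factors, was in 16 gained windows (3.07%), against 1.93% of the other hypermethylated windows, 2.44% of the hypomethylated windows and 2.02% of all windows that hold a CpG. GGGCGG, the GC box of SP and KLF factors, was in 30 (5.76%), against 7.77%, 3.56% and 2.12% in the same order. TGCCGC, the core bound by ZFP57, was in 24 (4.61%), against 2.43%, 4.03% and 1.26%. AAGGTCA, the half-site of ESRRB, was in 6 (1.15%), against 2.21%, 0.475% and 1.79%. GGGCGG and TGCCGC can share bases on opposite strands. The first 3 motifs contain a CpG, so their shares also follow the CpG number of a window.

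No gained window was listed in any of the other 3 comparisons of the series. The authors' lists held 244 windows for Nsun2 knockdown in Tet2-KO cells (0.0056% of those tested), 31 for Nsun2 knockdown in WT cells (0.000747%) and 307 for Pspc1 knockout (0.00571%). The Nsun2 lists share the siNC libraries used here. Windows outside a list have no values, so 5mC at the gained windows after Nsun2 knockdown or Pspc1 loss was not analysed here. The nearest approach was in Zfhx3, where chr8:108712401-108712500 lay 100 bp from a pair of windows that were higher in Pspc1 knockout, with 25, 23 and 22 reads against 5, 7 and 10 in the WT of that experiment at chr8:108712201-108712300.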

How the data were processed

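Genomic DNA was immunoprecipitated with an antibody to 5mC and sequenced. Per the labels and the study's methods, the authors trimmed reads with Trimmomatic 0.39, aligned them to mm10 with Bowtie2 2.4.1 in its default mode, which places a multi-copy read at 1 best site, removed duplicates with Picard and tested 100-bp windows with MEDIPS and edgeR, listing those with a Bonferroni adjusted p-value under 0.1. The deposited lists hold, per library, raw read counts, RPKM values and the relative methylation score, a fraction. The deposited p-value columns were used to recover how many windows were tested and for a stricter threshold of 0.01. They also hold the authors' fold changes and group means, which were not used. Only listed windows are in these files.

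The gained windows and the gene lists were chosen with earlier results of these data known. Library totals were recovered from counts and RPKM. Fold changes used log2(RPKM + 0.1), ratios used pooled counts with exact conditional 95% intervals, and 3 reads per library served as the floor. Intervals and floors cover counting error only. Listed coordinates were matched to GRCm38.p6 and GENCODE M21, and the CpG number of the lists equalled that of the reference in 100% of windows. The copy number is how often a window's middle 32 bases occur in the reference. A region was called single-copy where the median over its windows was 1. No test was made on the members. The regions named were the 10 single-copy regions of highest Tet2-KO level, the 5 longest, the 10 highest within 1 kb of a coding start and the 5 highest multi-copy regions. Windows of lowest and highest total Tet2-KO count and up to 5 genes per list were named too. A named region and a list gene that this rule also takes are not reported here. The Zfhx3 window near a Pspc1 window, the genes with the most windows, the other coding starts, the tandem arrays and the groups of regions were added after their values were seen. Steps were checked on simulated counts. Python 3.11.15, edgeR 4.0.16 and DESeq2 1.42.0 were used.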

Additional observations from a re-analysis of the deposited data

How the results depend on the processing

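Moving the WT limit to 0 or 1 read in each library left 132 or 278 windows, and keeping windows with 1 reference copy left 346. The number was 407 at an adjusted p-value under 0.01 and 688 at a limit of 5 reads. Leaving out 1 library gave 521 to 605 windows. The authors' list was not called again and every gained window was higher in each Tet2-KO library, so this count could not fall. The median log2 fold change moved from 4.46 to 3.70 and 3.12 with pseudocounts of 0.5 and 1 RPKM, to 2.46 with WT set to 3 reads in each library and to 4.31 in windows with 1 reference copy, and it was 4.38 to 4.54 when 1 library was left out. TMM factors and DESeq2 size factors over the listed windows, most of which are hypomethylated, gave 6.12 and 6.10, since these scalings moved the median of all listed windows by 1.87 and 1.84. Taking the replicate number as a block gave 5.32. The numbers did not pair the samples: deviations of same-numbered libraries correlated at 0.0328, -0.00676 and 0.00362. The soft-masked share was 62.4% for any masked base, 19.8% for all bases and 22.8% in windows with 1 reference copy. The share of regions near a start was 20.9% within 2 kb, 31.5% within 5 kb and 7.33% for protein-coding genes. Within 1 kb of a window of another list lay 1 gained window. The number of regions stayed between 219 and 256 and the median number of CpG sites at 3 under the alternatives run. The planned test in another comparison was not run, because no gained window is in another list. A count of 0 in a WT library allows a level of up to 3 reads, which is 1.95 to 2.60 RPKM.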
